A study of Mus musculus with 30 samples.

Results

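Bone marrow-derived dendritic cells (BMDCs) of 5 WT and 5 Cacnb3-/- cultures were compared in the libraries whose names end in ctrl. These are 10 of the 30 RNA libraries in the deposited gene count table, chosen by the library name and split by the genotype field of the sample labels. BMDCs are cells grown from bone marrow, here for 6 days, and the study's methods name GM-CSF as the growth factor. The study's methods give WT mice as C57BL/6J and Cacnb3-/- mice as C57BL/6N, adults of both sexes. By that account the substrain and the genotype cannot be told apart. No other allele is named for either group in these libraries. Each culture also gave a library named 0p5h and one named 24h. By the labels, BMDCs received a 30 min pulse of ATP (500 µM) with harvest at its end or after 24 h, while the study's text places the early harvest 30 min after the pulse. The treatment field of the libraries named ctrl reads 30 min of ATP and that of the libraries named 0p5h reads vehicle, so the names and the field disagree, and the 10 libraries are given here by their name. Within them both genotypes carry the same treatment field. Values per library are given in a fixed order, which for WT is p974s846, p974s850, p974s855, p974s856 and p974s864. For Cacnb3-/- it is p974s843, p974s851, p974s852, p974s853 and p974s865. The labels do not say that a number marks 1 animal, so p-values measure the spread between these cultures, whatever its source.

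Cacnb3 encodes an auxiliary β subunit of voltage-gated calcium channels, which also binds the IP3 receptor of the endoplasmic reticulum. Dendritic cells carry antigen to lymph nodes, and when they mature they switch on Ccr7, the receptor that guides this migration, together with chemokines, costimulatory molecules and NF-kB genes. Small amounts of type I interferon made in a culture act back on the cells through a complex that holds STAT2 and IRF9, which binds the interferon-stimulated response element and switches on a shared set of antiviral genes, among them Irf7. Bulk libraries hold all cells of a culture, so fewer cells of a type and less RNA per cell cannot be told apart. The dendritic cell label was set beside markers. Itgax, which encodes CD11c, had 184 to 255 CPM in WT and 97.5 to 409 CPM in Cacnb3-/- libraries, where CPM is the count per 1000000 counts after normalization. Ccr7 lay between 2739 and 5261 CPM. Markers of T and NK cells and of B cells summed to at most 19.7 and 6.14 CPM in any library, and Cd3e had 0 to 4 reads. Macrophage markers summed to 3619 to 16970 CPM over the 10 libraries, and dendritic cell lineage genes to 5503 to 8268 CPM. These values thus do not show cultures free of macrophages.

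Depth leaned lower and the mitochondrial share higher in Cacnb3-/- libraries, with overlap between the genotypes in both. Between 18424736 and 26425018 reads were counted on genes in WT libraries and between 12703988 and 22004225 in Cacnb3-/- libraries (exact two-sided permutation test, p = 0.0238, adjusted p = 0.0992 over 5 library measures by Benjamini-Hochberg). Mitochondrial genes took 1.07% to 4.49% of the counts in WT and 2.61% to 10.4% in Cacnb3-/- libraries (exact permutation p = 0.0397, adjusted p = 0.0992). Neither passed the adjustment, and the smallest p that 5 cultures against 5 allow is 0.00794. The 50 most abundant genes took 20.6% to 26.9% of counts over the 10 libraries and 11675 to 12154 genes had at least 1 count per 1000000 reads. Both measures overlapped between genotypes (exact permutation p = 0.19 and p = 0.23). Levels of Xist and Ddx3y placed 2 cultures of each genotype as female and 3 as male, and 0 of 5 sex genes passed an unadjusted p under 0.05 between genotypes. WT p974s864 had the fewest reads of the WT libraries and their highest mitochondrial share, and Cacnb3-/- p974s852 had a GC trend unlike any other library. Some of the results that rest on them are therefore given without them as well.

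Across all genes, no single gene separated the genotypes after adjustment. A gene was called when it differed at least 2-fold with a p under 0.05 after Benjamini-Hochberg adjustment. edgeR's quasi-likelihood test called 0 of 13022 genes (0.0%), and its smallest adjusted p was 0.243. At an unadjusted p under 0.05, 1126 genes were lower in Cacnb3-/- (8.65%) and 1035 were higher (7.95%), where 651 would be the number at that threshold if no gene differed. Every Cacnb3-/- library lay below every WT library in 127 genes (0.975%) and above in 100 genes (0.768%). The count of called genes depended on the tool and on 1 culture. DESeq2 called 146 genes, 103 lower (0.721%) and 43 higher (0.301%), limma-voom called 0, and limma-voom with sample quality weights called 406. Without WT p974s864, edgeR called 249 genes of 13277 (1.88%), 140 lower (1.05%) and 109 higher (0.821%). No gene is therefore called changed below, and values are described by their direction and by how far the groups overlap.

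The lean between genotypes differed with GC content. A library's GC trend is the way its log2 CPM, relative to the mean of the 10 libraries, moves with the GC content of a gene's longest transcript. As a straight line, this trend had slopes of 0.06, 0.13, -0.01, 0.16 and 0.03 log2 units per 10 percentage points of GC in WT, and of 0.15, -0.05, -0.47, -0.09 and 0.09 in Cacnb3-/- libraries. Cacnb3-/- p974s852 thus stood apart, and a difference in slope between the genotypes did not pass the exact permutation test (p = 0.222, adjusted p = 0.23). The difference in mean slope, Cacnb3-/- minus WT, was -0.152 with all libraries and -0.0528 without Cacnb3-/- p974s852. Genes were split into 5 equal bins by GC content. In the lowest bin (22.1% to 44.01%), 14.6% were higher and 2.99% lower in Cacnb3-/- at an unadjusted p under 0.05, with a median log2 fold change of 0.15. In the highest bin (54.8% to 78.6%), 3.1% were higher and 12.9% lower, with a median of -0.08. The bins between them stepped from one pattern to the other. Without Cacnb3-/- p974s852, 6.2% were higher and 4.3% lower in the lowest bin (median 0.05), and 3.77% higher and 9.17% lower in the highest (median -0.03).

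**Figure D1:**
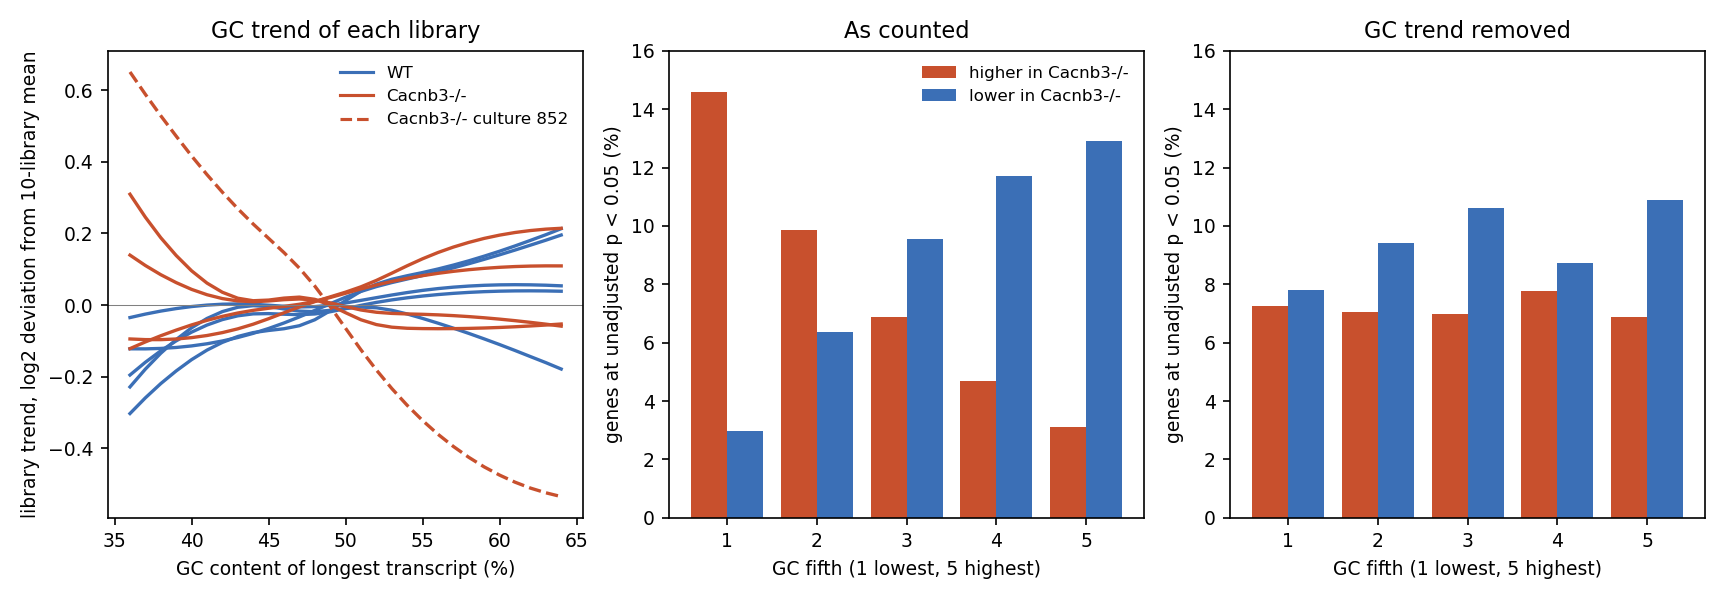
The left panel plots each library's fitted GC trend (natural spline, log2 deviation from the 10-library mean) against GC content in percent, WT in blue and Cacnb3-/- in orange, with Cacnb3-/- p974s852 dashed. The other panels give the percent of genes at an unadjusted p under 0.05 in each of 5 bins of GC content, higher (orange) or lower (blue) in Cacnb3-/-, as counted and with the trend removed. As counted, the share higher in Cacnb3-/- goes from 14.6% in the lowest bin to 3.1% in the highest, and with the trend removed it lies between 6.87% and 7.76% in all 5 bins.

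With each library's GC trend removed by an offset (a natural spline with 5 degrees of freedom), edgeR's quasi-likelihood test again made 0 calls (0.0%) over the 13022 genes, where no Benjamini-Hochberg adjusted p was under 0.247. At an unadjusted p under 0.05, 1227 genes were lower (9.42%) and 953 higher (7.32%). Of the 2161 genes under this threshold as counted, 1715 stayed under it, 446 left it and 465 others came in, and 3 of the 2161 changed sign. Of the 446 that left, 271 had been higher and 175 lower in Cacnb3-/-. Without WT p974s864 as well, edgeR called 150 genes lower (1.13%) and 114 higher (0.859%). DESeq2 with the same offset and all 10 libraries called 115 genes, 89 lower (0.697%) and 26 higher (0.204%). After removal the lowest GC bin held 7.25% higher and 7.8% lower genes, and the highest 6.87% and 10.9%. Fnbp1l, which encodes an F-BAR protein that shapes membranes and actin, had the lowest p of all genes once the trend was removed. Its transcript has a GC content of 34.04%. It had 118, 121, 136, 122 and 93 CPM in the WT and 62.6, 102, 133, 97.2 and 72.6 CPM in the Cacnb3-/- libraries. Its log2 fold change was -0.34 as counted (SE 0.19, unadjusted p = 0.0986) and -0.88 with the trend removed (SE 0.15, unadjusted p = 9.72e-05). The fitted trend of Cacnb3-/- p974s852 was 0.65 log2 units at a GC content of 36%. The -0.88 and the numbers of genes that left or came in are not given without that library. Exon length carried a second lean that the GC offset left in place. Among the shortest of 5 equal bins of genes (57 to 1927 bases), 12.9% were higher and 6.33% lower as counted, and 13.9% and 6.64% with the GC trend removed. With length trends removed too, these shares were 9.14% and 7.98%, beside 6.8% and 8.98% over all genes.

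The interferon-stimulated genes leaned lower in Cacnb3-/- in nearly all members. Of 35 genes tested in this list, 33 were lower in Cacnb3-/- at an unadjusted p under 0.05 (8.65% of all genes were) and 0 were higher, with a median log2 fold change of -1.496 against 0.03 over all genes. The counts were the same with the GC trend removed, with 33 lower, 0 higher and a median of -1.486. The exceptions were Mx1 (log2 fold change 0.01) and Bst2 (0.01). DESeq2 called 24 of the 35 lower, as counted, beside 0.721% of all genes. Averaged over the list, log2 CPM deviated from the 10-library mean by 1.22, 0.46, 1.65 and 0.99 in WT p974s846, p974s850, p974s855 and p974s856, and by -0.88 in WT p974s864. The Cacnb3-/- libraries lay at -0.7, -0.37, -0.79, -0.73 and -0.85. WT p974s864 thus sat below all 5 Cacnb3-/- libraries, and the WT libraries spread over more than the distance between the group means. Without WT p974s864, edgeR called 27 of the 35 genes lower, beside 1.05% of all genes, and the median was -1.76. In 30 of the 35 genes every Cacnb3-/- library lay below the 4 other WT libraries, against 5.62% of all genes, a count that follows from leaving out a library after its values were seen.

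Irf7, the transcription factor that amplifies the interferon response, had the steepest log2 fold change of the list and was chosen after its values were seen. It had 135, 35.3, 357, 111 and 6.14 CPM in WT and 10.2, 15.8, 3.73, 7.52 and 8.7 CPM in Cacnb3-/- libraries. WT p974s864 lay inside the Cacnb3-/- range and the other WT libraries above it, by log2 fold change -3.81 (SE 0.83, unadjusted p = 0.000681, edgeR Benjamini-Hochberg adjusted p = 0.243). Oasl1, an antiviral protein related to the oligoadenylate synthetases, had 40.8, 13.2, 95.8, 30.4 and 4.37 CPM in WT and 4.43, 5.89, 2.98, 5.3 and 2.62 CPM in Cacnb3-/- libraries (log2 fold change -3.13, SE 0.66, unadjusted p = 0.000531). Zbp1, a sensor of left-handed nucleic acid that can start necroptosis, had 36.3, 21.4, 68, 35.9 and 11.2 CPM in WT and 8.91, 12.5, 8.12, 7.65 and 10.2 CPM in Cacnb3-/- libraries (log2 fold change -1.87, SE 0.39, unadjusted p = 0.000416). In both genes WT p974s864 was again the only WT library within the Cacnb3-/- range. Oas2, which makes the 2'-5' oligoadenylates that activate RNase L, had a log2 fold change of -1.49 (SE 0.32, unadjusted p = 0.00055). Uba7, the activating enzyme for the ubiquitin-like ISG15, was the only gene of the list whose groups did not overlap. It had 159.6, 145, 166, 149.6 and 118 CPM in WT and 112, 88.3, 89.5, 94 and 80.9 CPM in Cacnb3-/- libraries (log2 fold change -0.67, SE 0.13, unadjusted p = 0.000196). Isg15 itself had a log2 fold change of -2.48 (SE 0.59, unadjusted p = 0.00121).

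Transcripts of interferons themselves were scarce. Ifnb1 had 2 to 4 reads in every WT library, 14 in all, and 0 or 1 read in each Cacnb3-/- library, 1 in all. Per counted read this was a ratio of 9.65 (95% exact interval 1.47 to 408, which covers counting error only). It was not among the genes tested. Ifna4, Ifnl2 and Ifnl3 had 0 reads in all 10 libraries and Ifng had 3.

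**Figure D2:**
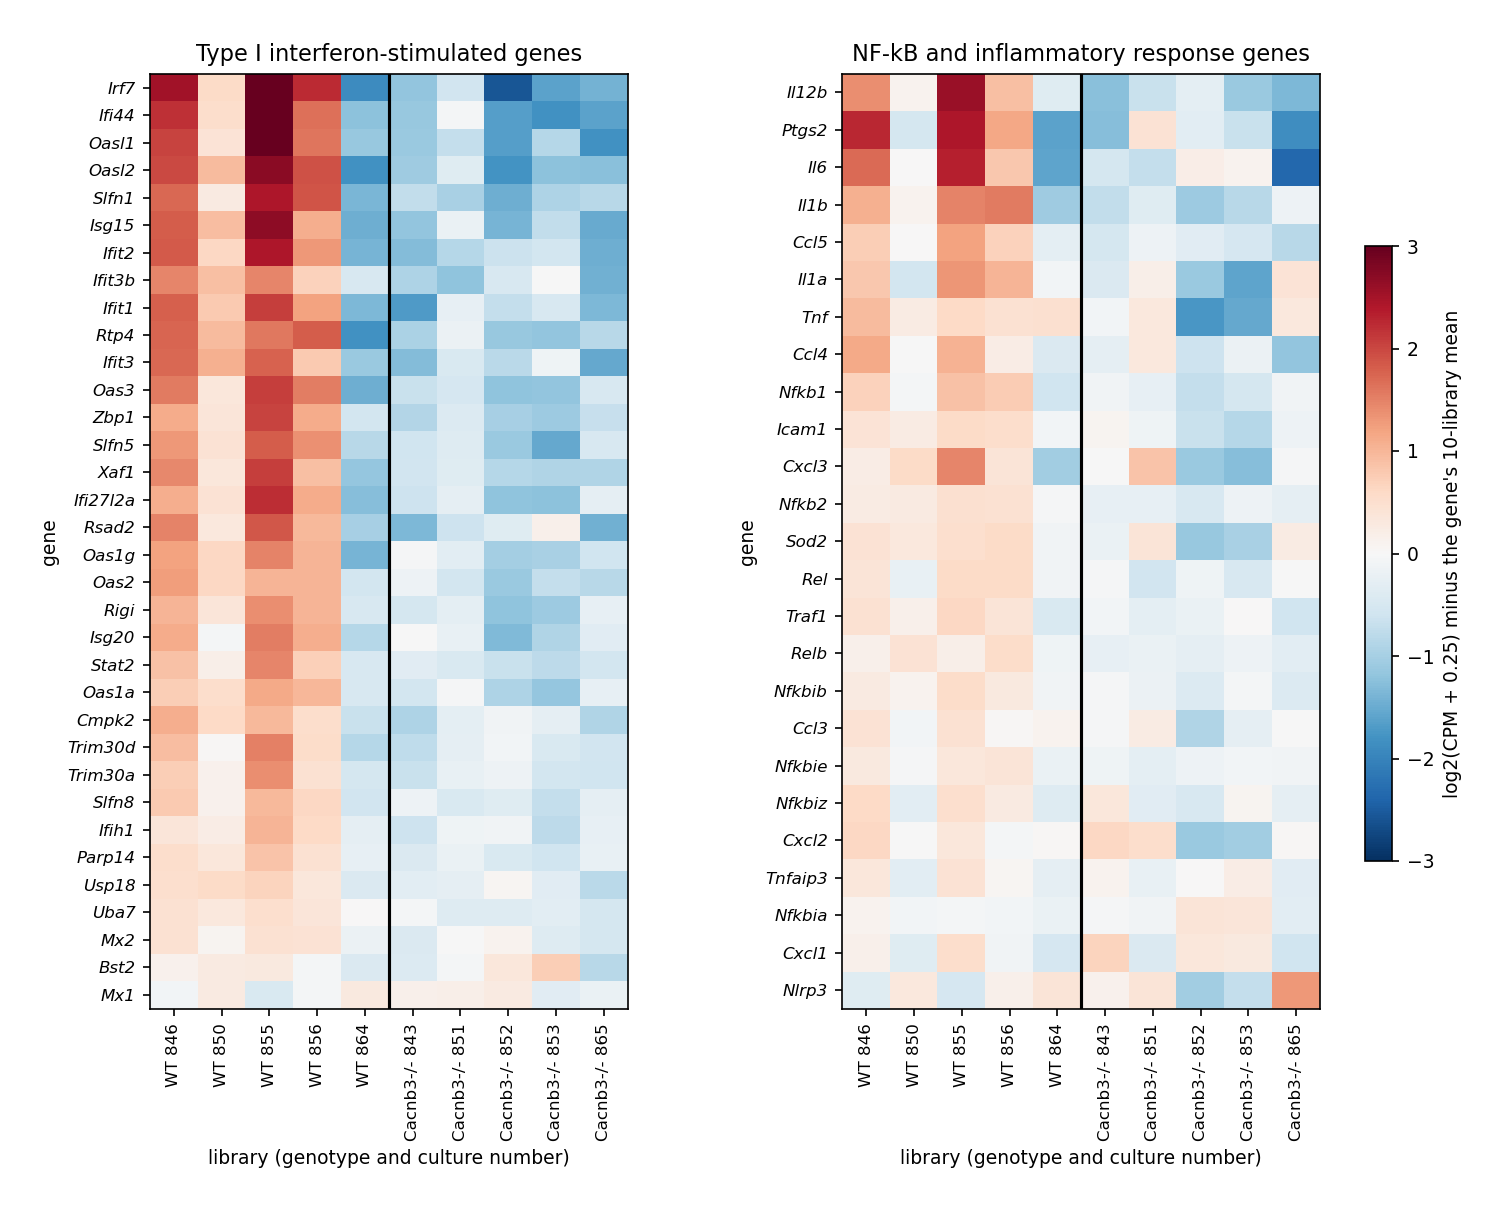
Each row is a gene of the lists, 1 interferon-stimulated member left out, and each column a library, WT to the left of the line and Cacnb3-/- to the right, and the color is log2(CPM + 0.25) minus the gene's mean over the 10 libraries. Among the interferon-stimulated genes 4 WT columns are red and WT p974s864 is blue like the 5 Cacnb3-/- columns. In the NF-kB list the columns are paler, and the mean log2 CPM deviation of WT p974s850 over that list was 0.01.

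Promoter windows were searched for the sequence that interferon-activated factors bind. RefSeq windows of 250 bases before to 50 bases after the start (GRCm38.p6) were searched on both strands for GAAA, any 2 bases and GAAA, the core of the interferon-stimulated response element. Of the 35 tested members, 26 had a window, matched by symbol, and 16 of these held the motif (61.5%), as did 3.94% of the genes tested that had a window and 3.44% of all 32851 windows. It stood in 0 of 20 NF-kB list members with a window, 1 of 13 macrophage markers and 2 of 12 mature dendritic cell genes. The windows of the 4 members with the lowest p among those that held the motif are printed 5′ to 3′ along the gene, in lower case with the motif in capitals, because they show how differently it is placed. On the other strand the same motif reads TTTC, any 2 bases and TTTC. Slfn5 lies at chr11:82951852-82952151 on the forward strand, Rigi at chr4:40239776-40240075 on the reverse strand, Stat2 at chr10:128270248-128270547 on the forward strand and Ifit3b at chr19:34607707-34608006 on the forward strand.
Slfn5: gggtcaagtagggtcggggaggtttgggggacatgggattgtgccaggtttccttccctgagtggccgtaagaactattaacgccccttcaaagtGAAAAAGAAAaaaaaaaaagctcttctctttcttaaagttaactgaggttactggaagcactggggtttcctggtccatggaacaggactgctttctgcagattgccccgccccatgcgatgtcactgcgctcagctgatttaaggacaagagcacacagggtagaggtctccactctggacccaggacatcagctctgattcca
Rigi: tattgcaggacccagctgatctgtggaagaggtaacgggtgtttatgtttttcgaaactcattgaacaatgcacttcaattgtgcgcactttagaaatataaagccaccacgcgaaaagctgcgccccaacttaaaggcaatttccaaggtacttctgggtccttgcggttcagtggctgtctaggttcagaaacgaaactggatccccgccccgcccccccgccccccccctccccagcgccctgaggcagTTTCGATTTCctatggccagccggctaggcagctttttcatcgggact
Stat2: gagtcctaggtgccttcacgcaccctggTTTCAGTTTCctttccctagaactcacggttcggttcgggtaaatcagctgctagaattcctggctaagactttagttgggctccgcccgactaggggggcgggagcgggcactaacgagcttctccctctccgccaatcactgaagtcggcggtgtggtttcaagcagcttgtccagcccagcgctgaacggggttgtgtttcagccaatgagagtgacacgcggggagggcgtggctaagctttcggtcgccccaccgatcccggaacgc
Ifit3b: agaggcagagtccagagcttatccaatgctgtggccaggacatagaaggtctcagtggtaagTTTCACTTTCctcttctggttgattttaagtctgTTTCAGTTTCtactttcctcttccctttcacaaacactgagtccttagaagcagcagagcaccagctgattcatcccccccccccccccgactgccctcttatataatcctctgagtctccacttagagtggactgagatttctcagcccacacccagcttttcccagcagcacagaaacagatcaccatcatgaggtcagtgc
The match began 155 bases before the start in Slfn5, a growth-regulatory schlafen, and 222 bases before it in Stat2, a subunit of the interferon-activated factor. In Rigi, the cytosolic RNA sensor also known as Ddx58, it lay just past the start. Ifit3b, which encodes an interferon-induced tetratricopeptide protein, held 2 matches. A match of these letters describes the window and does not show binding. The list was made of known interferon-stimulated genes, so its share of matches describes the list and not the genotype difference. Bst2, named above as an exception, also held the motif.
Log2 fold changes of the 4 genes were -1.84 (Slfn5, SE 0.41), -1.43 (Rigi, SE 0.32), -1.25 (Stat2, SE 0.29) and -2.36 (Ifit3b, SE 0.56). Stat2 had 167, 102, 250.4, 149 and 64.4 CPM in WT and 71.8, 65.7, 57, 52.1 and 62 CPM in Cacnb3-/- libraries, and WT p974s864 lay within the Cacnb3-/- range. Slfn5 had 67.5, 36.7, 97.1, 70.2 and 15.2 CPM in WT and 17.9, 20.8, 12.4, 9.26 and 19.4 CPM in Cacnb3-/- libraries. The near-identical families of Ifit, Oas, Slfn and Trim30 genes share sequence, and how their reads were split is uncertain.

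NF-kB and inflammatory response genes leaned the same way. Of 25 tested, 16 were lower in Cacnb3-/- at an unadjusted p under 0.05 and 0 higher (14 and 0 with the GC trend removed), with a median log2 fold change of -0.57 (-0.58 after removal). DESeq2 called 3 of them lower, beside 0.721% of all genes. Without WT p974s846 or p974s855 10 were lower at an unadjusted p under 0.05. Averaged over this list, log2 CPM deviated from the 10-library mean by 0.62, 0.01, 0.84, 0.49 and -0.35 in WT libraries. The Cacnb3-/- libraries deviated by -0.17, -0.06, -0.54, -0.48 and -0.36. WT p974s864 thus lay within the Cacnb3-/- range, and WT p974s850 was close to its upper end. Il12b, the p40 chain of IL-12 and IL-23, had 353, 144, 807, 249.9 and 104 CPM in WT and 55.7, 83.2, 109, 61.3 and 51.8 CPM in Cacnb3-/- libraries. Only WT p974s864 and Cacnb3-/- p974s852 overlapped (log2 fold change -2.2, SE 0.49, unadjusted p = 0.000808). Nfkb2, the p100 precursor of the noncanonical pathway, had 720.2, 729, 839, 834 and 587 CPM in WT and 514, 507, 435, 541 and 502 CPM in Cacnb3-/- libraries. Its groups did not overlap, WT p974s864 included (log2 fold change -0.57, SE 0.13, unadjusted p = 0.000968), and the GC-corrected value was -0.47. Il1b, the inflammasome-processed cytokine, had 510.3, 259.8, 684, 714 and 116 CPM in WT and 145, 188, 115, 137 and 219 CPM in Cacnb3-/- libraries (log2 fold change -1.51, SE 0.41, unadjusted p = 0.00345). The chemokine Ccl5 had a log2 fold change of -1.02 (SE 0.27, unadjusted p = 0.00277). Il6 had one of -1.65 (SE 0.64, unadjusted p = 0.0252) and Tnf one of -0.86 (SE 0.37, unadjusted p = 0.0402). Nfkbia and Tnfaip3, which end the NF-kB response, had log2 fold changes of 0.14 and -0.11 (SE 0.16 and 0.18) and overlapped fully.

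The κB sequence was searched in the windows of 4 lists, those of interferon-stimulated, NF-kB, mature dendritic cell and macrophage genes. The letters GGGA, any base and TTTCC, searched on both strands, stood in 6 of the 20 NF-kB members with a window (30.0%), in 0.581% of genes tested that had one and in 0.411% of all windows, and in none of the 26 interferon-stimulated members. Nfkb2 and Il6 are the members with the lowest p among those that held it, and their windows are shown with the motif in capitals, at chr19:46305445-46305744 on the forward strand and chr5:30012864-30013163 on the forward strand.
Nfkb2: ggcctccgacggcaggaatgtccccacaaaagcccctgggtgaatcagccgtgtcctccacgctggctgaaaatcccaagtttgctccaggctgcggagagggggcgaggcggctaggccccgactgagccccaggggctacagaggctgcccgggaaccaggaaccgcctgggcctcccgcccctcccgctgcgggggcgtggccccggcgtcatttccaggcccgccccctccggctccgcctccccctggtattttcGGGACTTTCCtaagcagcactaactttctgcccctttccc
Il6: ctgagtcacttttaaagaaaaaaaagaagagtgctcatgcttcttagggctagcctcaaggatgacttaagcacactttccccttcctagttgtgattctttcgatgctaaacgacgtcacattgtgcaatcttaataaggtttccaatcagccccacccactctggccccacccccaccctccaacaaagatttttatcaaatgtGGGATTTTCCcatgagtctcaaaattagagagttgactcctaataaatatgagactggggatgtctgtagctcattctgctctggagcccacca
In Il6 the match began 44 bases before the start, and in Nfkb2 it lay past the start. The share of matches in the NF-kB list likewise describes the list and not the genotype difference.

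Mature migratory dendritic cell genes were lower in part. Of 20 tested, 9 were lower in Cacnb3-/- and 0 higher at an unadjusted p under 0.05 (median log2 fold change -0.38), and 7 and 0 with the GC trend removed (median -0.24). Without WT p974s850 the median as counted was -0.22, with 8 lower. Ccr7 had 4609, 4149, 5005, 5261 and 3161 CPM in WT and 3073, 3343, 2739, 2910 and 2932 CPM in Cacnb3-/- libraries. Only WT p974s864 overlapped with them (log2 fold change -0.56, SE 0.17, unadjusted p = 0.00618). Ccl22, a ligand of CCR4, had 6602, 8319, 13260, 7178 and 4279 CPM in WT and 2921, 5734, 4681, 4460 and 3538 CPM in Cacnb3-/- libraries (log2 fold change -0.89, SE 0.29, unadjusted p = 0.0105). Relb, the partner of NFKB2 in mature dendritic cells and a member of the NF-kB list as well, had 699, 839, 702, 919 and 575 CPM in WT and 527, 543, 519.7, 564 and 505 CPM in Cacnb3-/- libraries, with no overlap (log2 fold change -0.49, SE 0.14, unadjusted p = 0.00420). Il4i1, a secreted amino acid oxidase, had a log2 fold change of -0.84 (SE 0.22, unadjusted p = 0.0029). Other members of the list, such as Fscn1, Cd83, Cd86 and Cd80, had unadjusted p of 0.142, 0.851, 0.579 and 0.664.

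In MHC class II presentation, 3 of 12 genes were lower and 0 higher, as counted and with the GC trend removed. Ciita, the coactivator that drives the class II genes, had 97.8, 136, 148, 184 and 75.2 CPM in WT and 73.8, 77.3, 39.7, 40.8 and 112 CPM in Cacnb3-/- libraries (log2 fold change -0.9, SE 0.31, unadjusted p = 0.0135), and in the female cultures alone its log2 fold change was 0.10. H2-Eb1 and H2-Oa had log2 fold changes of -0.54 and -0.48 (SE 0.23 and 0.15). Median log2 fold changes of the class II list were 0.09 in the 4 female cultures, which include WT p974s864, and -0.64 in the 6 male cultures. Of 13 dendritic cell lineage genes, 1 was lower and 0 higher, and 0 were either with the trend removed. That gene was Irf8, a factor of the dendritic cell lineage (log2 fold change -0.6, unadjusted p = 0.0398).

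**Figure D3:**
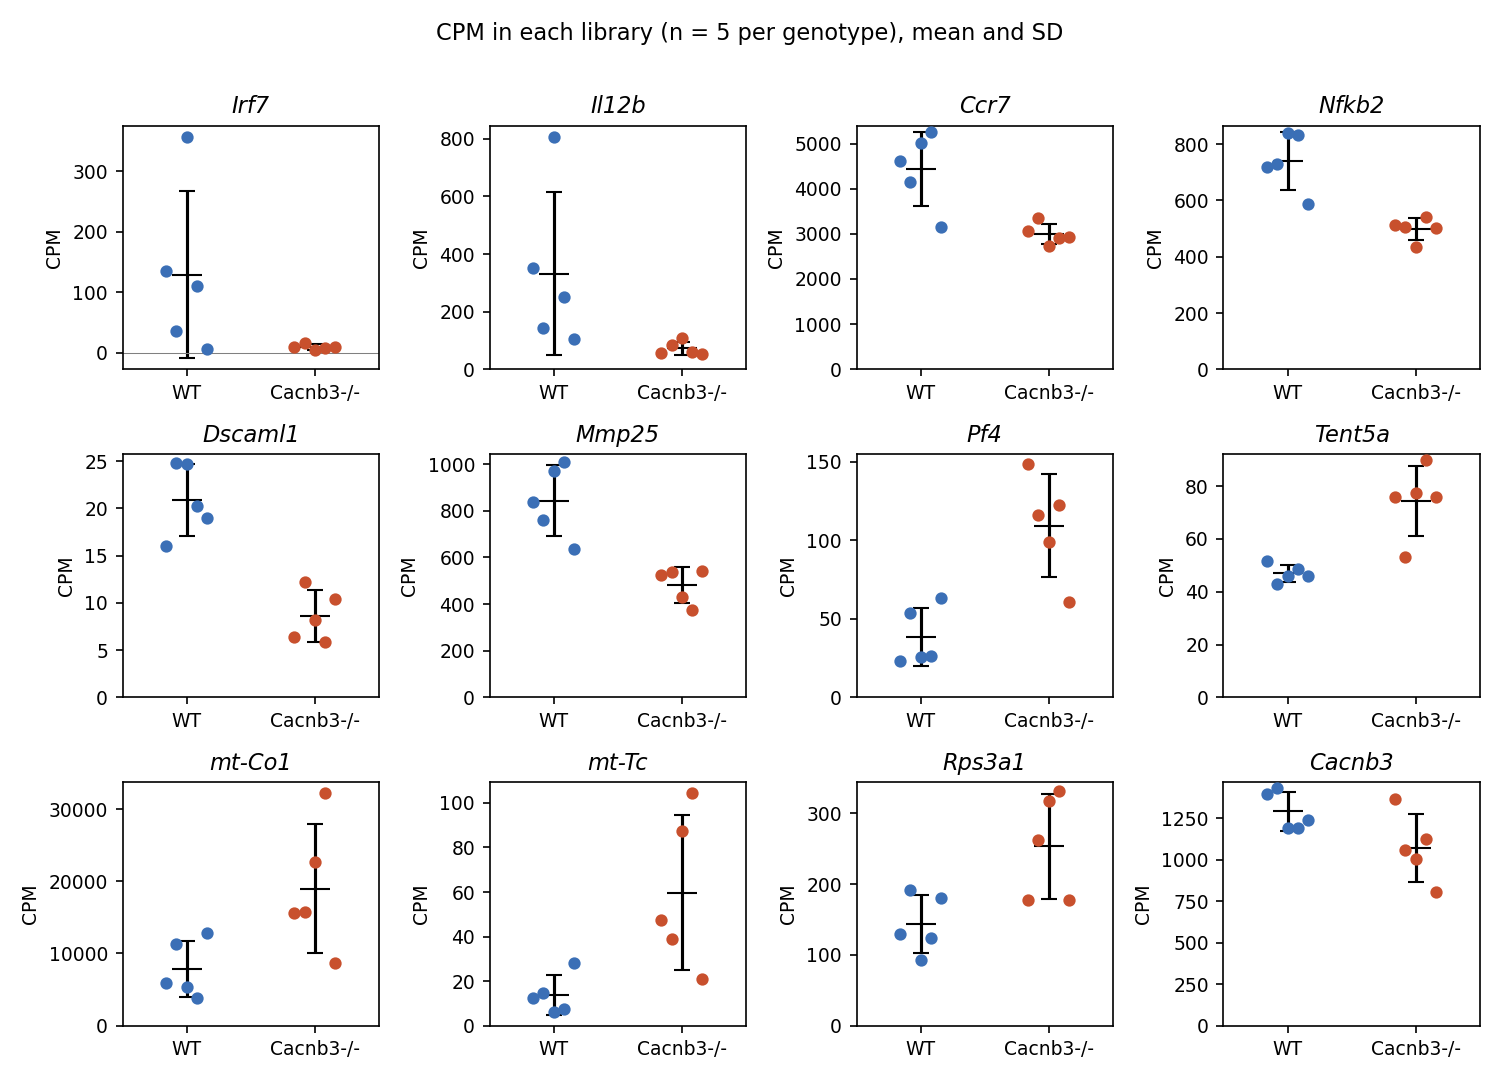
Each panel gives the CPM of 1 gene in each library (points), with the mean and SD of 5 libraries per genotype, on an axis that starts at or below 0. Groups do not overlap for Nfkb2, Dscaml1, Mmp25 and Tent5a, and 1 WT library, p974s864, falls among the Cacnb3-/- values of Irf7.

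Macrophage markers had few genes past the threshold. Of 20 tested, 2 were higher in Cacnb3-/- and 0 lower (median log2 fold change 0.39), beside 7.95% and 8.65% over all genes, and 3 and 0 with the GC trend removed (median 0.34). Their summed level was 3619 to 13650 CPM in WT and 5216 to 16970 CPM in Cacnb3-/- libraries, and none was at 0 in all libraries. Spp1, a secreted phosphoprotein of macrophages, had 90.2, 106, 70.1, 65.9 and 161 CPM in WT and 125, 170.4, 255, 185 and 116 CPM in Cacnb3-/- libraries (log2 fold change 0.79, SE 0.27, unadjusted p = 0.0139). Apoe, a lipid carrier, had 272, 433, 37.9, 264 and 866 CPM in WT and 1563, 817, 446, 774 and 773 CPM in Cacnb3-/- libraries (log2 fold change 1.22, SE 0.6, unadjusted p = 0.0628). In both genes WT p974s864 had the highest WT value. Without that culture the median of the list was 0.69, and 7 were higher and 1 lower at an unadjusted p under 0.05. Over all genes 13.1% were higher and 11.8% lower in that fit. There edgeR called 2 of the list higher, beside 0.821% of all genes. Without WT p974s846, Cacnb3-/- p974s843 or p974s865 1 was higher at an unadjusted p under 0.05. Of the 20 markers, 16 had a positive and 4 a negative log2 fold change with all 10 libraries. Adgre1 and Csf1r, chosen after their values were seen, were among the 4, at -0.04 and -0.06 (SE 0.22 and 0.48). Whether macrophages in the cultures bear on the interferon and maturation genes was not tested. Ctsl, a lysosomal protease, was the steepest of 32 lysosome genes (log2 fold change 1.03, SE 0.37, unadjusted p = 0.0170), of which 2 were higher and 1 lower.

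Pf4, or platelet factor 4, had the lowest p after Tent5a among genes higher in Cacnb3-/- with a mean of at least 5 CPM and a symbol other than a clone name. It had 22.9, 53.9, 25.7, 26.6 and 63.3 CPM in WT and 148, 116, 99, 122 and 60.6 CPM in Cacnb3-/- libraries (log2 fold change 1.51, SE 0.32, unadjusted p = 0.000556). Cacnb3-/- p974s865 and WT p974s864 overlapped. F13a1, the A chain of factor XIII, had 40.9, 33.2, 11.8, 46.3 and 63 CPM in WT and 167, 60.7, 89.9, 121 and 131 CPM in Cacnb3-/- libraries (log2 fold change 1.55, SE 0.38, unadjusted p = 0.00158), with 1 library of each genotype in overlap. Pf4 belongs to the erythroid and megakaryocyte list, of which 3 of 11 genes were tested, 2 higher and 0 lower. Ppbp, another platelet chemokine, was the second (log2 fold change 0.93, SE 0.37, unadjusted p = 0.0288).

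The tested mitochondrially encoded genes were higher in Cacnb3-/- at an unadjusted p under 0.05, and fewer of them with the GC trend removed. Of 13 in the list 8 were tested, and all 8 were higher at an unadjusted p under 0.05 (median log2 fold change 1.42). With the GC trend removed 4 were (median 1.05), and their mean GC content of 36.5% compares with 49.4% over all genes. mt-Co1, the catalytic subunit of cytochrome c oxidase, had 5945, 11300, 5423, 3833 and 12790 CPM in WT and 15580, 15790, 22660, 32290 and 8662 CPM in Cacnb3-/- libraries (log2 fold change 1.27, SE 0.41, unadjusted p = 0.00923). WT p974s850 and p974s864 lay above Cacnb3-/- p974s865. mt-Rnr1, the small ribosomal RNA of the organelle, had 1415, 1861, 1061, 872 and 2597 CPM in WT and 4148, 3408, 10860, 12680 and 1675 CPM in Cacnb3-/- libraries (log2 fold change 2.07, SE 0.53, unadjusted p = 0.00202). The transfer RNA genes of the organelle, a family added after their values were seen, had 11 of 12 tested genes higher and 0 lower (median 1.99), and 10 and 0 with the trend removed (median 1.503). With GC and length trends both removed, 4 of the 12 transfer RNA genes were higher and 0 lower (median 0.56). mt-Tc, the cysteine transfer RNA, had 12.2, 14.7, 6.32, 7.48 and 28.3 CPM in WT and 47.4, 38.8, 87.4, 104 and 20.9 CPM in Cacnb3-/- libraries. In the 4 female cultures alone the median of the 8 protein genes was 0.11, and in the male cultures 2.10. The female cultures are WT p974s846 and p974s864 and Cacnb3-/- p974s843 and p974s865, so they hold the WT library that stood apart, and sex cannot be told apart from these cultures. Without WT p974s846, p974s855 or p974s856, or without Cacnb3-/- p974s852 or p974s853, 3 of the 8 were higher. Across all genes, 0 of 13022 passed a test of whether the genotype difference itself depended on sex (edgeR's quasi-likelihood test, smallest Benjamini-Hochberg adjusted p = 0.379). At an unadjusted p under 0.05 in this test there were 1679 genes, where 651 would be the number if none differed. The 0 calls therefore do not show that the genotype difference was the same in both sexes. Overlapping mitochondrial genes share reads that counting leaves out, so their counts are uncertain.

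**Figure D4:**
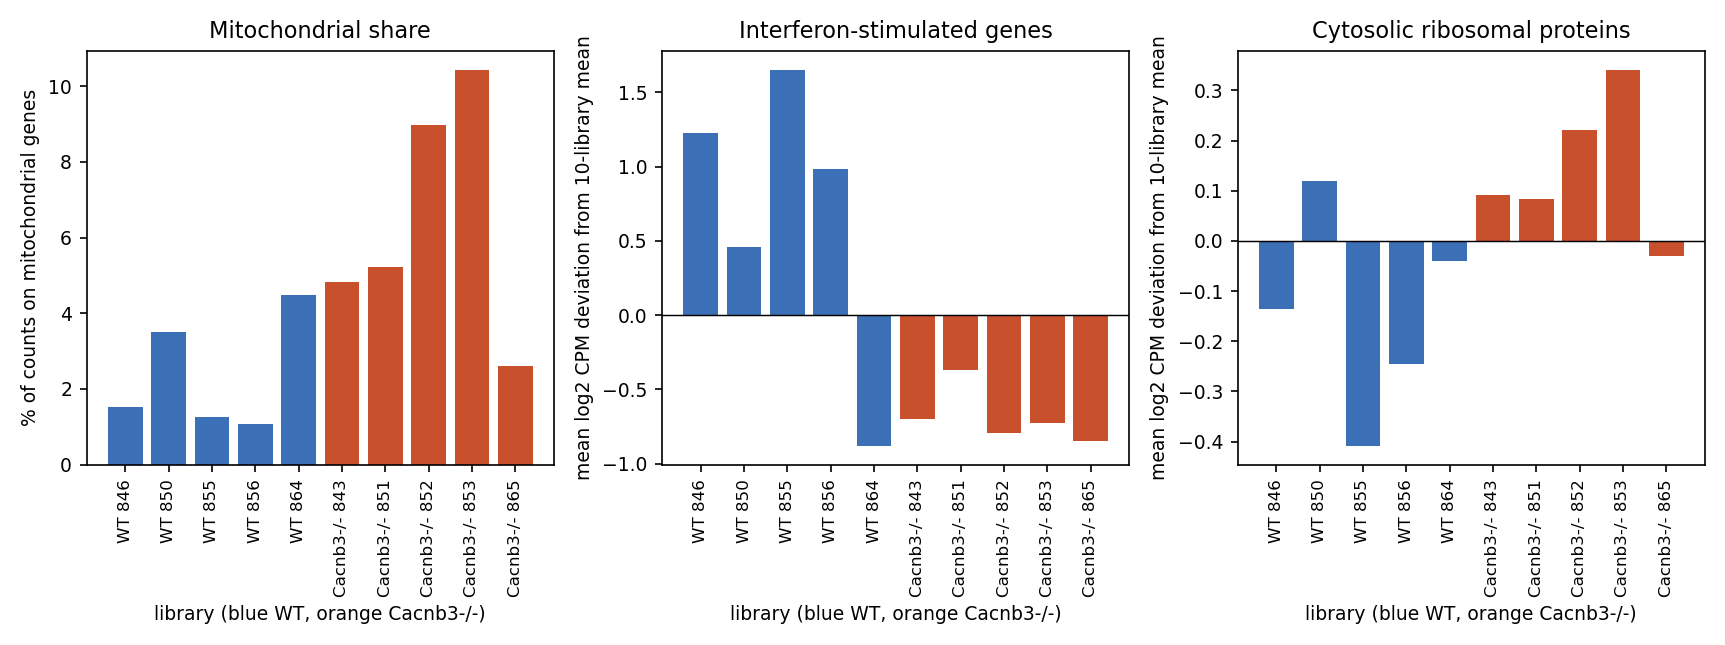
Bars give, for each library (WT in blue, Cacnb3-/- in orange), the percent of counts on mitochondrial genes and the mean log2 CPM deviation from the 10-library mean of the interferon-stimulated and of the cytosolic ribosomal protein genes. WT p974s864 has 4.49% mitochondrial counts and an interferon mean of -0.88, and Cacnb3-/- p974s865 has 2.61% and -0.85.

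In the nuclear respiratory chain and in both kinds of ribosome, a minority of genes were higher in Cacnb3-/- at an unadjusted p under 0.05, more than the 7.95% over all genes, and edgeR and DESeq2 called 0 of them. Of 74 nuclear-encoded respiratory chain subunits, 16 were higher and 2 lower at an unadjusted p under 0.05 (median log2 fold change 0.17), and 19 and 2 with the GC trend removed (0.16). Ndufb5, an accessory subunit of complex I, had 47.3, 58, 43, 48.6 and 59.2 CPM in WT and 62.8, 71.5, 81.8, 72.2 and 59.8 CPM in Cacnb3-/- libraries, with no overlap (log2 fold change 0.44, SE 0.13, unadjusted p = 0.00423). Of 93 cytosolic ribosomal protein genes, 23 were higher and 0 lower (median 0.26), and 24 and 1 with the trend removed (median 0.28). Rps3a1, a protein of the small subunit, had 129, 192, 93.2, 123 and 180.3 CPM in WT and 178, 262, 318, 332 and 177 CPM in Cacnb3-/- libraries (log2 fold change 0.82, SE 0.24, unadjusted p = 0.00526). Of 76 mitochondrial ribosomal protein genes, 16 were higher and 2 lower (median 0.13). Over the cultures left out in turn, 6 to 24 genes of the respiratory chain, 7 to 36 of the cytosolic ribosome and 7 to 21 of the mitochondrial ribosome were higher. The lowest counts were those without WT p974s856 or Cacnb3-/- p974s853, without Cacnb3-/- p974s852, and without WT p974s856, and all of the highest were without WT p974s850 or Cacnb3-/- p974s865. Ribosomal protein genes have many processed pseudogenes, so their counts are uncertain. These are short genes, and with GC and length trends both removed the counts were 11 and 1 for the respiratory chain, 19 and 1 for the cytosolic ribosome and 12 and 2 for the mitochondrial ribosome. Within the female cultures the medians of the 3 groups were 0.02, 0.13 and 0.04, and within the male cultures 0.25, 0.37 and 0.18.

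Counts of splicing genes and zinc finger genes moved with the GC trend. Of 36 snRNP and splicing factor genes, 11 were higher and 1 lower as counted (median log2 fold change 0.27), against 7 and 2 with the trend removed (0.19). Leaving out single cultures gave 4 higher genes without Cacnb3-/- p974s852 or p974s853 and up to 18 without p974s865. Hnrnpu and Snrpe, which bind nuclear RNA and form the snRNP core, had log2 fold changes of 0.99 and 0.72 (SE 0.34 and 0.25), and in the female cultures alone -0.1 and -0.09. Of 334 genes named Zfp, 23 were higher and 15 lower as counted (median 0.06), and 11 higher and 21 lower with the trend removed (median -0.04). Both shares lay below those over all genes in either fit, and without Cacnb3-/- p974s852 10 were higher and 12 lower as counted (median -0.02). Zfp366, also known as DC-SCRIPT, a regulator of transcription in dendritic cells, had a log2 fold change of -1.34 in both fits (SE 0.35, unadjusted p = 0.00248 as counted). Zfp950 went from 0.69 (SE 0.21) to 0.34 (SE 0.17) on removal. Of 31 RNA helicase and RNA decay genes, 3 were higher and 3 lower as counted, and 1 and 5 with the trend removed.

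Cholesterol synthesis genes were lower in part. Of 22 tested, 6 were lower in Cacnb3-/- and 0 higher (median log2 fold change -0.40), and 7 and 0 with the GC trend removed (median -0.36). Srebf2, the transcription factor of the pathway, had a log2 fold change of -0.69 (SE 0.2, unadjusted p = 0.00559). Fdps, which makes farnesyl diphosphate, had 9.24, 12.2, 17.6, 11 and 6.82 CPM in WT and 5.24, 6.86, 6.79, 5.17 and 6.73 CPM in Cacnb3-/- libraries. Its lowest WT library, p974s864, lay just within the Cacnb3-/- range (log2 fold change -0.89, SE 0.23, unadjusted p = 0.00252). Mvk, or mevalonate kinase, was the member whose groups did not overlap (log2 fold change -0.43, SE 0.14, unadjusted p = 0.00758). The median was -0.10 in the female and -0.54 in the male cultures.

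Few calcium and purinergic genes passed an unadjusted p under 0.05, a threshold at which 7.95% of all genes were higher and 8.65% lower. Cacnb3 itself, targeted in these mice, lies at chr15:98632220-98644530 on the forward strand of GRCm38. It had 1400, 1436, 1192, 1190 and 1242 CPM in WT and 1365, 1058, 1004, 1123 and 804 CPM in Cacnb3-/- libraries. Groups overlapped (log2 fold change -0.27, SE 0.15, unadjusted p = 0.106, edgeR Benjamini-Hochberg adjusted p = 0.383), and with the GC trend removed the log2 fold change was -0.14 (SE 0.17). One count per gene does not tell which exons the reads came from, so this count does not check the knockout labels. Of 11 other voltage-gated calcium channel subunits tested, 1 was higher and 1 lower. Cacng8, an auxiliary γ subunit also known for AMPA receptors, had 30.8, 33.3, 25.2, 34.3 and 14.9 CPM in WT and 15.7, 14.6, 9.52, 15.4 and 15.2 CPM in Cacnb3-/- libraries (log2 fold change -0.97, SE 0.22, unadjusted p = 0.000968). WT p974s864 was the WT library in overlap. Cacnb2, a related β subunit, had 0.919 to 2.77 CPM in WT and 2.23 to 5.84 CPM in Cacnb3-/- libraries (log2 fold change 0.88, SE 0.35, unadjusted p = 0.0254). Of 11 tested genes in the P2 receptor list 1 was higher and 0 lower, and 0 with the GC trend removed. That gene was Lpar6, which encodes a receptor for lysophosphatidic acid and not for ATP, so no other member passed. Of 12 IP3 receptor and phospholipase C genes 0 were higher and 1 lower. Of 19 genes of store-operated calcium entry and calcium pumps, 0 were higher and 3 lower, among them Atp2a3 and Calm3, with log2 fold changes of -0.94 and -0.37 (SE 0.33 and 0.13). In this list 15 log2 fold changes were negative and 4 positive.

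Migration genes were mixed, and are given beside 7.95% higher and 8.65% lower over all genes at an unadjusted p under 0.05. Of 36 actin and motility genes, 6 were lower and 0 higher (4 and 0 with the GC trend removed), with a median log2 fold change of -0.08. Myo1g and Myh9, both myosin heavy chains, had log2 fold changes of -0.69 and -0.50 (SE 0.18 and 0.14, unadjusted p = 0.00193 and 0.00391), and Rhoa, a GTPase of contractility, one of -0.35 (SE 0.14). Of 22 adhesion genes, 4 were lower and 1 higher, and 7 and 1 with the trend removed. Vcam1 and Icam1, ligands of leukocyte integrins, had log2 fold changes of -0.97 and -0.65 (SE 0.32 and 0.19), and Itgb3, the β3 integrin chain, one of 0.77 (SE 0.23). Of 11 chemokine receptor genes, 3 were lower and 1 higher. Cxcr5, the receptor that guides cells to B cell follicles, had 11, 4.1, 19.9, 10.4 and 1.67 CPM in WT and 1.43, 2.54, 4.31, 2.35 and 1.22 CPM in Cacnb3-/- libraries (log2 fold change -2.02, SE 0.58, unadjusted p = 0.00441). WT p974s850 and p974s864 lay below Cacnb3-/- p974s852, the highest of its genotype.

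**Figure D5:**
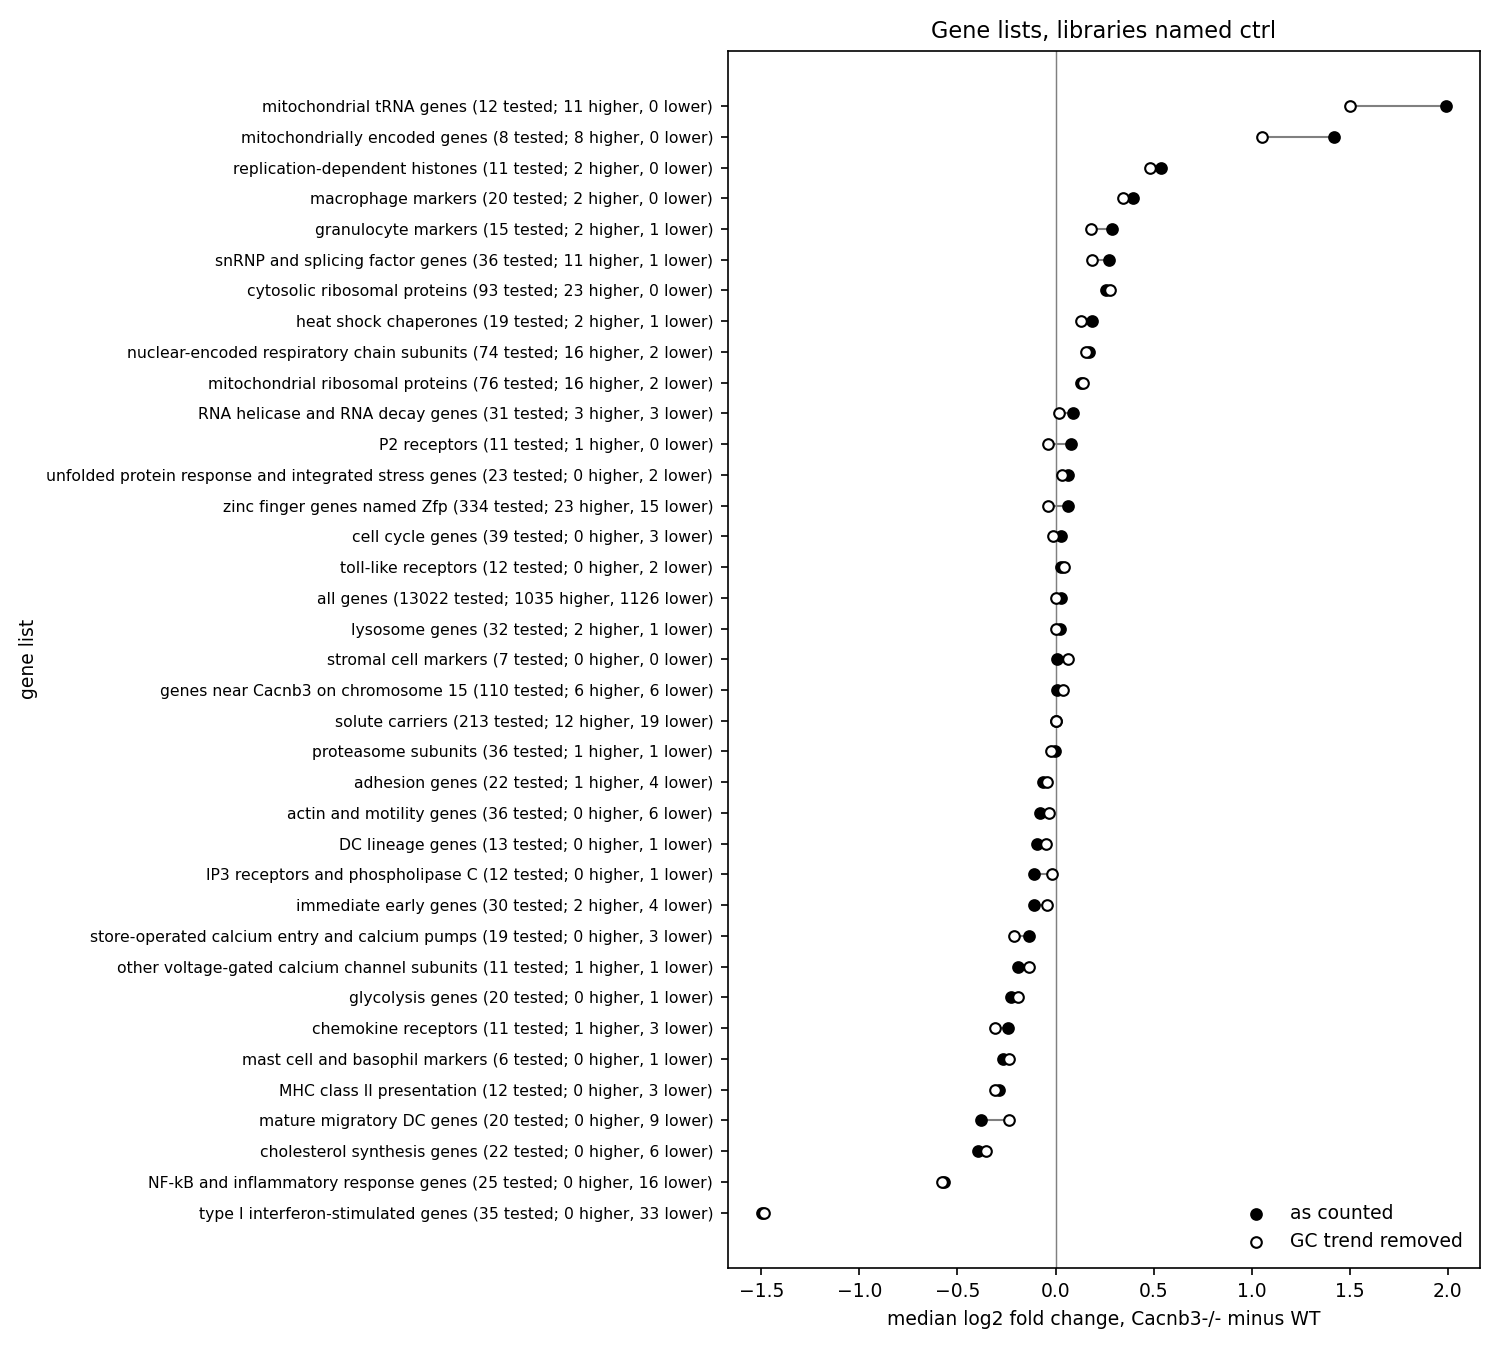
Points give the median log2 fold change (Cacnb3-/- minus WT) of each gene list with 5 or more genes tested, the sex and substrain lists left out, as counted (filled) and with the GC trend removed (open), with the number of genes tested and of those at an unadjusted p under 0.05 in each direction as counted. The interferon-stimulated list lies farthest to the left at -1.496 and -1.486, and the mitochondrial lists farthest to the right.

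The other lists are given by their counts at an unadjusted p under 0.05, beside 7.95% higher and 8.65% lower over all genes. Among markers of other cell types, 2 of 15 granulocyte genes were higher and 1 lower, 0 of 6 mast cell and basophil genes higher and 1 lower, and 1 of 3 plasmacytoid dendritic cell genes higher and 1 lower. None of 2 eosinophil, 2 B cell, 2 T and NK cell and 7 stromal genes passed. Granulocyte markers summed to 221 to 730 CPM in WT and 377 to 638 CPM in Cacnb3-/- libraries, and stromal markers to 25.2 to 58.6 and 21.1 to 59.7 CPM. Of 39 cell cycle genes 0 were higher and 3 lower, of 20 glycolysis genes 0 and 1, of 36 proteasome subunits 1 and 1, of 19 heat shock chaperones 2 and 1, of 23 unfolded protein and integrated stress genes 0 and 2, and of 12 toll-like receptors 0 and 2. Of 30 immediate early genes 2 were higher and 4 lower, of 213 solute carriers 12 and 19, and of 11 replication-dependent histones 2 and 0. Histone transcripts carry no poly(A) tail as a rule, and their reads in a poly(A) library are uncertain.

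Several genes with low p outside these lists had groups that did not overlap. As before, genes are named only with a mean of at least 5 CPM and a symbol other than a clone name. Dscaml1, a cell adhesion molecule of the immunoglobulin superfamily, had the lowest p in the table. It had 16, 24.8, 24.7, 20.3 and 18.9 CPM in WT and 6.38, 12.2, 8.2, 5.84 and 10.4 CPM in Cacnb3-/- libraries (log2 fold change -1.28, SE 0.22, unadjusted p = 7.93e-05). WT p974s864 lay above all 5 Cacnb3-/- libraries. Mmp25, a membrane-anchored matrix metalloproteinase, had 838, 759.7, 971, 1011 and 638 CPM in WT and 523, 538, 432, 374 and 544 CPM in Cacnb3-/- libraries (log2 fold change -0.81, SE 0.16, unadjusted p = 0.000373). Arhgap22, a GTPase-activating protein for Rac, had a log2 fold change of -1.18 (SE 0.22, unadjusted p = 0.000158) and Gtpbp1, a GTP-binding protein of translation, one of -0.57 (SE 0.11, unadjusted p = 0.000235), both without overlap. Rnf213, a large ubiquitin ligase known for antimicrobial defense, had 97.9, 78.5, 118, 101 and 55.6 CPM in WT and 44.9, 50.2, 31.3, 27.8 and 54 CPM in Cacnb3-/- libraries (log2 fold change -1.12, SE 0.23, unadjusted p = 0.000424). The lowest WT value, that of p974s864, lay just above the highest Cacnb3-/- one. Snrk, a kinase related to AMPK, and Rgmb, a BMP coreceptor, had log2 fold changes of -0.62 and -0.51 (SE 0.14 and 0.12) as counted, and of -0.58 and -0.56 with the GC trend removed. Triobp and Mllt1 had log2 fold changes of -0.49 and -0.48 as counted and of -0.37 and -0.38 with the trend removed.

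Among genes higher in Cacnb3-/-, Tent5a, a poly(A) polymerase of secreted protein transcripts, had the lowest p. It had 51.6, 42.9, 45.9, 48.7 and 46.1 CPM in WT and 76, 53, 77.5, 89.8 and 75.7 CPM in Cacnb3-/- libraries (log2 fold change 0.66, SE 0.13, unadjusted p = 0.000321). Ly86, or MD-1, the partner of the toll-like receptor homolog RP105, had 52.9, 83, 52.2, 62.9 and 83.2 CPM in WT and 92.8, 104, 116, 110.1 and 97 CPM in Cacnb3-/- libraries (log2 fold change 0.64, SE 0.15, unadjusted p = 0.00139). Neither pair of groups overlapped. Slc16a1, the lactate transporter MCT1, Ryk, a Wnt coreceptor, and Zdhhc14, a palmitoyltransferase, had log2 fold changes of 0.61, 0.58 and 0.95 (SE 0.15, 0.14 and 0.26), also without overlap. Trf, the iron carrier transferrin, had one of 0.81 (SE 0.21) as counted and 0.86 (SE 0.20) with the GC trend removed.

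Genes near Cacnb3 and substrain genes were looked at because the study's methods name different C57BL/6 substrains for the 2 genotypes. Of 110 tested genes that start within 5 Mb of Cacnb3, 6 were higher and 6 lower (median log2 fold change 0.01), and 9 and 7 with the GC trend removed. Fkbp11, a chaperone of the secretory pathway, had 0.449, 1.21, 0.468, 0.760 and 1.67 CPM in WT and 2.91, 2.61, 1.49, 2.55 and 3.76 CPM in Cacnb3-/- libraries (log2 fold change 1.58, SE 0.39, unadjusted p = 0.00154), from 343 reads in all. WT p974s864 and Cacnb3-/- p974s852 overlapped. Rnd1, a small GTP-binding protein, and Tuba1a, an α-tubulin, had log2 fold changes of -0.63 and -0.70 (SE 0.18 and 0.20). Nnt, the transhydrogenase that carries a deletion in C57BL/6J, had 6.47, 8.56, 6.59, 6.56 and 9.57 CPM in WT and 7, 9.03, 9.52, 7.52 and 7.96 CPM in Cacnb3-/- libraries, so it did not separate the genotypes at the level of 1 count per gene. Wdfy1, an adaptor of toll-like receptor signaling in the substrain list, had 53.8, 55.6, 61.8, 14.8 and 46.2 CPM in WT and 56.5, 51.4, 84.6, 50.3 and 19.3 CPM in Cacnb3-/- libraries. WT p974s856 and Cacnb3-/- p974s865 were low and the other 8 libraries were not, a split that did not follow genotype. Of 5 substrain genes tested, 1 was lower and 0 higher, Cyfip2 (log2 fold change -0.35, SE 0.16, unadjusted p = 0.0477).

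The same cultures gave the libraries named 0p5h and 24h, so these are not separate samples. As counted, median log2 fold changes of the interferon-stimulated list were -1.42 and -0.63 there, of the NF-kB list -0.44 and -0.14, and of the mitochondrially encoded list 1.37 and 1.78. With the GC trend removed they were -1.42 and -0.65, -0.37 and -0.37, and 1.13 and 1.01, in the same order. Irf7 in WT p974s864 had 7.86 CPM in the library named 0p5h and 6.54 CPM in that named 24h, and in the other WT cultures 12.2 to 398 and 29.2 to 226 CPM. The low value of this culture thus recurred in its other 2 libraries. The Cacnb3-/- libraries had 2.65 to 23.3 CPM of Irf7 in the set named 0p5h and 17.4 to 53.8 CPM in that named 24h. WT p974s850, at 12.2 and 29.2 CPM, lay within these ranges too.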

How the data were processed

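RNA of BMDC cultures was sequenced after poly(A) enrichment with a TruSeq kit. The authors deposited raw counts per gene for 30 libraries, made with featureCounts (version 1.5.1 in the table header) and Ensembl 79 gene models on GRCm38, and the labels name mm10. The study's methods name STAR 2.4 and GRCm39, so the sources differ on the build, and coordinates here are those of the table. The header shows no strand option, and reads that map to several places or overlap several genes were left out by default, which makes paralogs, overlapping and antisense genes uncertain.

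The 10 libraries named ctrl were used, and 0 columns were left unmapped. Symbols came from GENCODE M39 for 38984 of 43629 identifiers (89.4%). Genes that passed filterByExpr were tested with edgeR 4.0.16 in R 4.3.3 (TMM, glmQLFit and glmQLFTest, Benjamini-Hochberg over all genes) and called at an adjusted p under 0.05 and at least 2-fold. CPM are counts per 1000000 after TMM. The GC offset used a spline with 5 degrees of freedom, and 12887 genes (99.0%) had a GC value. DESeq2 1.42.0, limma-voom 3.58.1, other size factors, no filter, sex as a covariate, no genes of the sex chromosomes, all 30 libraries in 1 fit, a sum over each culture's libraries and leaving out each culture were alternatives, and lane, each sex alone, leaving out both libraries that stood apart, and GC bins and list counts without each culture were added after seeing the data. Sex was read from Xist and Y-linked counts, and lane from the column names. The scripts were tested on simulated counts.

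Depth was 12703988 to 26425018 counts per library, and intervals cover counting error only. Every pair of libraries differed by more than sampling noise, so none was counted as a repeat of another. The named genes were the 12 with the lowest p in each direction in each fit (mean of at least 5 CPM, no clone names), up to 4 of each list, 5 near Cacnb3, and Cacnb3, sex and substrain genes. Outside this rule, and chosen after their values were seen, were Irf7, Isg15, Mx1, Il6, Tnf, Nfkbia, Tnfaip3, Fscn1, Cd80, Cd83, Cd86, Itgax, Adgre1, Csf1r, the interferons, and Slfn5, Rigi, Stat2 and Ifit3b, whose promoters were printed. Members and lists were chosen with earlier results of these data known. Some genes that this rule names are not reported here.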

Additional observations from a re-analysis of the deposited data

Results flagged for a closer look

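Of 92 sets of 5 libraries of 1 genotype looked at, 2 held a library that lay farther from the rest than Dixon's critical value of 0.71, and chance gives about 1 in 20. Cacng8 had 9.52 CPM in Cacnb3-/- p974s852, and the other 4 Cacnb3-/- libraries had 14.6 to 15.7 CPM. WT p974s864 had a total of about 18420000 counts, and the other 4 WT libraries had 25178670 to 26425018.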

How the results depend on the processing

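edgeR called 0 genes as counted and with the GC trend removed. DESeq2 called 146 and, with the trend removed, 115, limma-voom with sample quality weights called 406, the male cultures alone gave 1, and leaving out both WT p974s864 and Cacnb3-/- p974s852 gave 129 and 121. Leaving out each culture in turn gave 0 to 249 calls as counted and 0 to 264 with the trend removed, and the upper values were those without WT p974s864. Genes higher at an unadjusted p under 0.05 numbered 2340 with quality weights, 129 in female cultures, 1852 in male cultures and 1714 when each culture's 3 libraries were added up, and genes lower numbered 2066, 163, 1973 and 1735. Without single cultures they ranged from 545 to 1734 higher and 635 to 1568 lower, and with the trend removed from 515 to 1652 (520 without WT p974s855) and 703 to 1812 (789 without WT p974s856). The causes were not tested.

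The difference in mitochondrial share (Cacnb3-/- minus WT) ranged from 3.04 to 4.996 percentage points without single cultures and lost an exact permutation p under 0.05 without WT p974s846, p974s855 or p974s856 and without Cacnb3-/- p974s852 or p974s853. The difference in genes detected ranged from 48.3 to 156 genes, and passed that threshold without WT p974s864. In female cultures the median log2 fold change was 0.11 for mitochondrially encoded genes, 0.023 for the respiratory chain and -0.10 for cholesterol synthesis. There the log2 fold change turned for Ciita (0.10), Spp1 (-0.063), mt-Nd1 (-0.04), Chordc1 (-0.13), Manf (-0.33), Tlr9 (0.0065), Snrpe (-0.091), Hnrnpu (-0.10), Nnt (-0.10) and Wdfy1 (-0.40). Wdfy1 also turned without both libraries that stood apart (-0.069), and ranged from -0.077 to 0.385 over the cultures left out, turning without WT p974s856 (-0.056) or Cacnb3-/- p974s852 (-0.077). Of 3848 values of 154 genes over 25 settings, 3562 kept their direction and side of the adjusted threshold, 273 newly passed it and 13 turned. No paired analysis was possible because WT and Cacnb3-/- cultures share no number.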
